A study of Mus musculus with 12 samples.

Results

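The 10 circadian clock genes Arntl, Clock, Per1, Per2, Per3, Cry1, Cry2, Nr1d1, Nr1d2 and Dbp were taken by name from a table of 22053 gene rows, and each name matched 1 row. They were measured by RNA sequencing of whole kidney from 12 wild-type C57BL/6 mice in 3 groups of 4. Control mice ate a diet without added adenine from 8 to 16 weeks of age. CKD mice ate the same diet with 0.2% adenine over those 8 weeks, which injures the tubules and gives chronic kidney disease. CKD+Fe mice had the adenine diet and weekly i.p. injections of iron dextran at 0.5 g/kg, and both other groups had weekly i.p. PBS, so every mouse was injected. The hour of day at which the kidneys were collected is not given in the sources used here, nor is the sex of the mice. Every mouse is named by the number in its label, and each label is 1 mouse.

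The circadian clock is a feedback loop of transcription with a period of about a day that runs in nearly all cells of the body, those of the nephron among them. The proteins of Arntl (also called Bmal1) and Clock pair and switch on genes through the E-box motif, among them the Per, Cry, Nr1d and Dbp genes. PER and CRY proteins then return to the nucleus and hold the pair back, and NR1D1 and NR1D2 (REV-ERB alpha and beta) repress Arntl. DBP acts through the D-box on later genes of the cycle. In mouse kidney and other peripheral tissues Arntl transcript peaks at nearly the opposite time of day from Dbp and the Per genes, so the level of a clock gene in a single tissue sample depends on the hour at which it was taken.

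The members lie on 8 chromosomes of the mouse genome (build GRCm38). Arntl (ENSMUSG00000055116) is at chr7:113207465-113314126, Clock (ENSMUSG00000029238) at chr5:76209868-76304792, Per1 (ENSMUSG00000020893) at chr11:69095217-69109960, Per2 (ENSMUSG00000055866) at chr1:91415982-91459324 and Per3 (ENSMUSG00000028957) at chr4:151003652-151044665. Cry1 (ENSMUSG00000020038) is at chr10:85131702-85185054, Cry2 (ENSMUSG00000068742) at chr2:92403646-92434043, Nr1d1 (ENSMUSG00000020889) at chr11:98767932-98775333, Nr1d2 (ENSMUSG00000021775) at chr14:18204054-18239127 and Dbp (ENSMUSG00000059824) at chr7:45705088-45710203. Nr1d1 overlaps the last part of Thra, a thyroid hormone receptor gene on the other strand, by 1075 bases, and Dbp overlaps Sphk2 on the other strand by 737 bases. Per3 lies within the annotated span of Camta1 on the same strand. The libraries kept strand, but whether the quantification used it is not given in the sources used here, so reads in the Nr1d1 and Dbp overlaps may be shared. Strand could not part Per3 from Camta1, so reads there may be shared in either case.

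RefSeq promoter windows were on hand for 9 members, all but Per2. They were searched on both strands for 4 motifs of the clock in the 250 bases before each start: the E-box CACGTG, its variant CACGTT, the D-box TTATGTAA and the site AGGTCA that NR1D and ROR proteins recognise. Of all 32851 windows of that length, 6.02% hold CACGTG, 3.85% hold CACGTT, 0.819% hold TTATGTAA and 14% hold AGGTCA. Per1 is shown because it gave the firmest difference below, and Cry1 and Per3 because they hold an E-box and a pair of D-boxes. Each is the stretch from 250 to 11 bases before the RefSeq start in build GRCm38.p6, with motif letters in capitals.
Per1, chr11:69098699-69098938, plus strand: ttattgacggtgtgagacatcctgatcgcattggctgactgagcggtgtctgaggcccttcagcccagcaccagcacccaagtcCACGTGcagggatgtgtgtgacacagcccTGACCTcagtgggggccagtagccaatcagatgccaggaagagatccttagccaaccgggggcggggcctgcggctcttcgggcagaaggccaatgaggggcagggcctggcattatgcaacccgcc
Cry1, chr10:85185065-85185304, minus strand: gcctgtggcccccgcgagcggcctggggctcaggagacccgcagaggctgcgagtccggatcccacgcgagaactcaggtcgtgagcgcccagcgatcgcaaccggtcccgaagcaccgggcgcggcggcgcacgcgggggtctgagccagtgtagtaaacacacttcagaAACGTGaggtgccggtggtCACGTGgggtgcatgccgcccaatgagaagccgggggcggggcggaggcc
Per3, chr4:151044676-151044915, minus strand: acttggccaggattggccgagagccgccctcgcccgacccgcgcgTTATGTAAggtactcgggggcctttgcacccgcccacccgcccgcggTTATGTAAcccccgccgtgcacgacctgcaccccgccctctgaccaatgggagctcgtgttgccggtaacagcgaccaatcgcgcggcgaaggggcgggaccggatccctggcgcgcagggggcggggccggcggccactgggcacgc
In Per1 the E-box began 166 bases before the start and an AGGTCA site, read on the other strand, 137 bases before it. This Per1 window lies inside the longer gene span given above, and the window of the other RefSeq start, at chr11:69099902-69100151, held none of the 4 motifs. In Cry1 the E-box began 60 bases and the variant 79 bases before the start, and in Per3 the D-boxes began 205 and 158 bases before it. The variant CACGTT was also found before Cry2 and Nr1d1 and AGGTCA before Nr1d2 and 1 of 3 starts of Clock, while 6 of the 13 member windows, that of Dbp, both of Arntl, the other 2 of Clock and the other of Per1, had none of the 4 motifs. Of 250 bases, 159 of the Dbp window, 167 and 138 of those 2 Clock windows and 46 of 1 Arntl window lie in annotated exons. No 2 of the motif matches overlapped. A match of letters is a description and was not tested as a binding site.

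The values are FPKM, a density of sequenced fragments scaled by transcript length and by library size, so that levels can be set side by side between genes. Over the table, FPKM summed to between 503438 and 707843 per mouse, and steps in the low values put the sequencing depth of the libraries at 0.678 to 1 of the deepest. A gene was tested if 1 FPKM or more was reached in 4 or more mice, which 13148 genes did, all 10 members among them. Summed FPKM of 10 proximal tubule markers was 3853 to 5670 in control, 699.1 to 1387 in CKD and 748.7 to 1894 in CKD+Fe mice, so the tissue read as kidney with fewer proximal tubule transcripts in both adenine groups. Summed FPKM of 10 macrophage markers was 122.3 to 251.5, 1792 to 3710 and 1659 to 3770, and that of 8 fibroblast markers 92.5 to 127.7, 486.7 to 880.0 and 403.8 to 566.1, in the same order. Sums of 11 markers of other nephron segments overlapped, at 2033 to 3400, 2699 to 3812 and 2275 to 3567. Those of 7 of 8 lymphocyte markers were 3.06 to 6.04, 3.87 to 18.7 and 12.5 to 24.2, the last above all control mice. In bulk tissue a change in the number of cells of a type and a change in RNA per cell cannot be told apart, and the part of cell makeup in the clock gene differences was not tested.

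The 4 control kidneys did not share 1 pattern of clock gene transcript levels, and this stands before every comparison with them. Mice 012811 and 012822 had low Arntl, at 0.734 and 0.840 FPKM, and high Dbp, at 95.1 and 112.1 FPKM. Mice 042301 and 042310 had high Arntl, at 5.67 and 4.004 FPKM, and low Dbp, at 22.6 and 23.95 FPKM. The ratio of Dbp to Arntl was thus 130 and 133 in the first pair and 3.99 and 5.98 in the second. What the digits of the mouse numbers stand for is not given in the sources used here, and the pairs were set up after the values were seen. Between them 8 of the 10 members did not overlap, against 26.3% of all genes tested. Because the pairs were drawn with these values known, this count describes the split and cannot test it.

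The other clock genes were compared between the same pairs of control mice. On the log2(FPKM + 1) scale, the mean of mice 012811 and 012822 minus that of 042301 and 042310 was −1.69 for Arntl, a difference that 0.0608% of all genes tested matched or passed in size. It was 2.102 for Dbp (0.0228% of genes), 1.20 for Cry2, 1.15 for Cry1, 1.07 for Per2, 1.05 for Per3 and 0.90 for Per1. Nr1d1 stood the other way at −0.69, and Nr1d2 at 0.52 and Clock at −0.30 were the members whose pairs overlapped. In the wider list, Npas2, which can stand in for Clock as the partner of Arntl, differed by −1.73 and Nfil3, a repressor at D-boxes, by −1.04. Ciart, a repressor of the Arntl and Clock pair, differed by 2.22, Hlf by 1.20, Wee1 by 1.18, Usp2 by 1.06 and Tef by 0.93. Hlf and Tef are the D-box relatives of Dbp. These are 2 mice against 2, in pairs set up after the values were seen. The differences and shares are given as a description with no test.

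**Figure D1:**
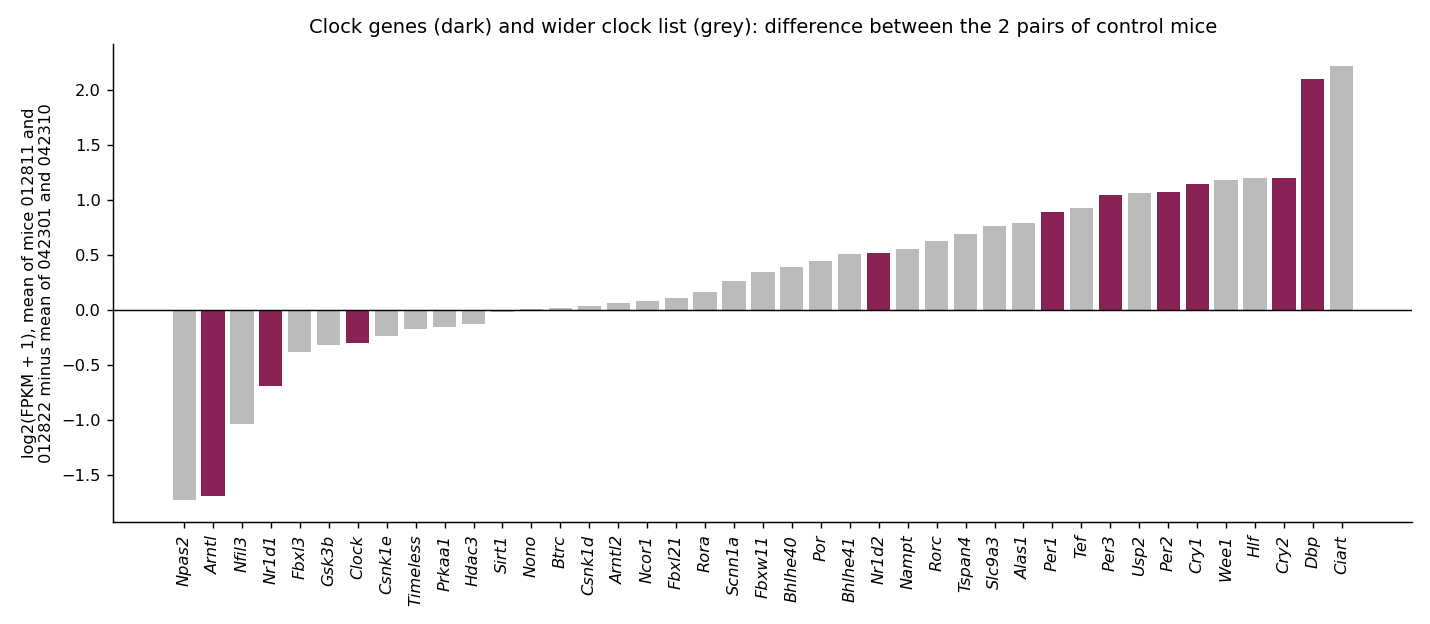
Difference in log2(FPKM + 1) between the mean of control mice 012811 and 012822 and the mean of control mice 042301 and 042310 for the 10 clock genes (dark bars) and the 31 tested genes of the wider clock list (grey bars), in order of size. Npas2 at −1.73 and Arntl at −1.69 stand at 1 end and Dbp at 2.102 and Ciart at 2.22 at the other.

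The CKD and CKD+Fe mice lay between the control pairs. The ratio of Dbp to Arntl was 18.3, 7.90, 5.44 and 8.59 in the CKD mice 021320, 022301, 110310 and 120102. It was 12.3, 7.89, 14.9 and 7.20 in the CKD+Fe mice 042702, 062910, 111710 and 122320. All but CKD mouse 110310, at 5.44, were above both mice of the second control pair and all were far below the first. Control mouse 042301 also stood apart in its tissue, with 963.6 FPKM of the collecting duct water channel gene Aqp2 against 153.3 to 284.7 FPKM in the other control mice. Its summed papilla and urothelium markers were 650.8 FPKM against 64.96 to 145.2. Control mouse 042310 had the lowest of those sums, 64.96 FPKM. Arntl was 5.67 FPKM in 042301 and 4.004 FPKM in 042310, and Dbp 22.6 and 23.95 FPKM. The part of tissue makeup in the clock gene levels of the control mice was not tested.

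**Figure D2:**
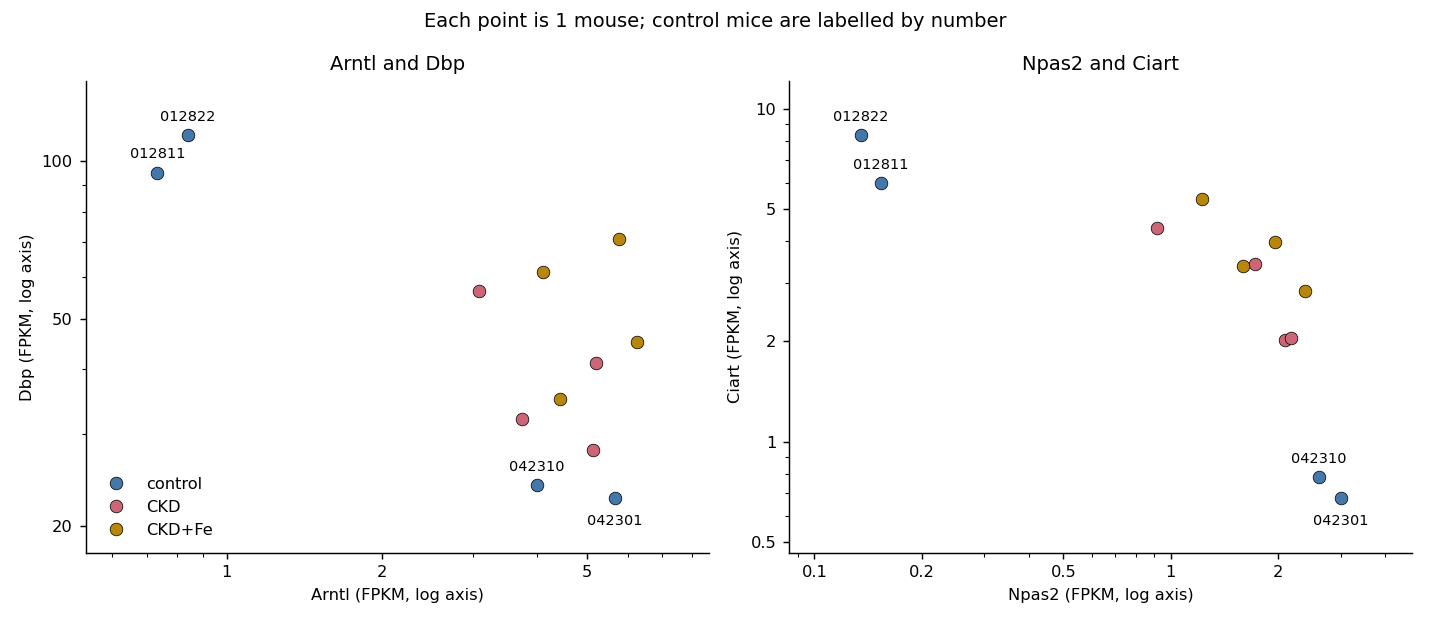
FPKM of Dbp against Arntl (left) and of Ciart against Npas2 (right) in each of the 12 mice, on log axes, with colours for the 3 groups and control mice labelled by number. Control mice 012811 and 012822 sit at low Arntl and high Dbp, control mice 042301 and 042310 at high Arntl and low Dbp, and the 8 mice on adenine diet between them in the Dbp to Arntl ratio or near the second pair.

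Among the activators, Arntl was measured at 0.734, 0.840, 5.67 and 4.004 FPKM in control mice 012811, 012822, 042301 and 042310. It was 3.09, 5.21, 5.15 and 3.74 FPKM in the CKD mice, and 5.76, 4.43, 4.11 and 6.25 FPKM in the CKD+Fe mice, in the order of mice used above and kept below. The 8 adenine-fed mice, at 3.09 to 6.25 FPKM, were all above the first control pair and overlapped the second. Against control, the log2 fold change of FPKM + 1 was 0.70 (SE 0.37) in CKD, which did not pass the test (limma, adjusted p = 0.107), and 0.92 (SE 0.37) in CKD+Fe, which did (limma, adjusted p = 0.0413). With the first control pair left out the CKD difference was −0.15, and with the second left out 1.55 (limma, adjusted p = 0.000159). The CKD+Fe difference was 0.07 without the first pair (limma, adjusted p = 0.818) and 1.77 without the second (limma, adjusted p = 9.88e-05).

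Clock, the partner of Arntl, was 3.70, 3.44, 3.17 and 6.61 FPKM in control mice, 10.5, 8.39, 4.07 and 10.5 FPKM in CKD mice and 6.38, 6.13, 9.42 and 9.17 FPKM in the CKD+Fe group. Control mouse 042310 was the highest of its group and CKD mouse 110310 the lowest of its own, and those made the groups overlap. Clock rose by 0.81 (SE 0.27) on the log2 scale in CKD (limma, adjusted p = 0.0158) and by 0.77 (SE 0.27) in CKD+Fe (limma, adjusted p = 0.0219). The exact two-sided permutation test over the 8 mice of a comparison gave p = 0.0571 and 0.0857 for Clock. Without the first control pair neither difference passed, at 0.66 and 0.62 (limma, adjusted p = 0.129 and 0.160).

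Per1, whose protein is a repressor of the loop and whose gene also answers acutely to light, glucocorticoids and cAMP, gave the clearest difference among the members. It was 4.20, 5.75, 2.93 and 1.58 FPKM in control mice. It was 16.9, 16.3, 12.6 and 30.3 FPKM in CKD mice and 21.7, 31.8, 22.2 and 16.7 FPKM in the CKD+Fe group. Every adenine-fed mouse was above every control mouse, and the lowest of them, 12.6 FPKM in CKD mouse 110310, was above the highest control mouse at 5.75 FPKM. Group means were 3.62 ± 1.78, 19.1 ± 7.75 and 23.1 ± 6.32 FPKM (SD, n = 4 each). In the order of mean FPKM among the 10 members Per1 was the seventh in control mice and the fourth in both adenine groups. The log2 fold change was 2.13 (SE 0.30, 95% interval 1.48 to 2.79) in CKD against control (limma, adjusted p = 4.33e-05). It was 2.44 (SE 0.30, 95% interval 1.79 to 3.09) in CKD+Fe against control (limma, adjusted p = 2.08e-05). The exact permutation p was 0.0286 in both comparisons, the smallest that 4 against 4 can give.

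The Per1 difference was above the shift of the whole table and did not rest on either control pair. The median log2 fold change of all genes tested was 0.50 in both comparisons with control, and Per1 lay 1.63 and 1.94 above it. With the FPKM rescaled by median of ratios Per1 rose by 1.65 and 1.96, and after quantile normalization by 1.49 and 1.79, in CKD and CKD+Fe. With mice 012811 and 012822 left out it rose by 2.58 and 2.88, and with 042301 and 042310 left out by 1.69 and 1.99. All 8 of these values passed the test, with limma adjusted p from 0.000118 to 0.00171. Leaving out a control pair cannot separate diet from the hour of collection, which is not given. The part of that hour in the Per1 difference was not tested.

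Genes of 2 other lists that answer to acute stimuli are given beside Per1. Of 8 immediate early genes 7 were tested, and all 7 rose in both comparisons with control, with medians of 2.45 and 2.31 on the log2 scale, beside 54.6% and 54.4% of all genes called higher. After quantile normalization 6 of the 7 passed in each, all but Nr4a1 in CKD (1.31) and Ier2 in CKD+Fe (0.82). Their summed FPKM was 21.8 to 47.7 in control, 129.6 to 254.7 in CKD and 87.1 to 306.4 in CKD+Fe mice. In control mice Fos was 0.75 to 1.96 FPKM and Atf3 0.78 to 1.99 FPKM. Both reached the limit for testing only through the adenine groups, in which they were higher, so the count of 7 leans towards rises. Of 5 glucocorticoid-responsive genes 3 rose in both comparisons, Fkbp5 and Pdk4 passed in neither, and the sums of all 5 were 82.0 to 132.3, 173.5 to 306.0 and 157.9 to 217.5 FPKM. Among them Tsc22d3, which encodes GILZ, rose by 1.35 and 1.18. Zbtb16, 1 of the 3 that rose, was below 1 FPKM in all control mice, at 0.20 to 0.40 FPKM. It was tested only because of the adenine groups, in which it was higher. Sgk1 did not pass under median-of-ratios rescaling (0.36 and 0.46), nor Zbtb16 in CKD+Fe under either rescaling (0.83 and 0.28). The part of these responses in the level of Per1 was not tested.

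**Figure D3:**
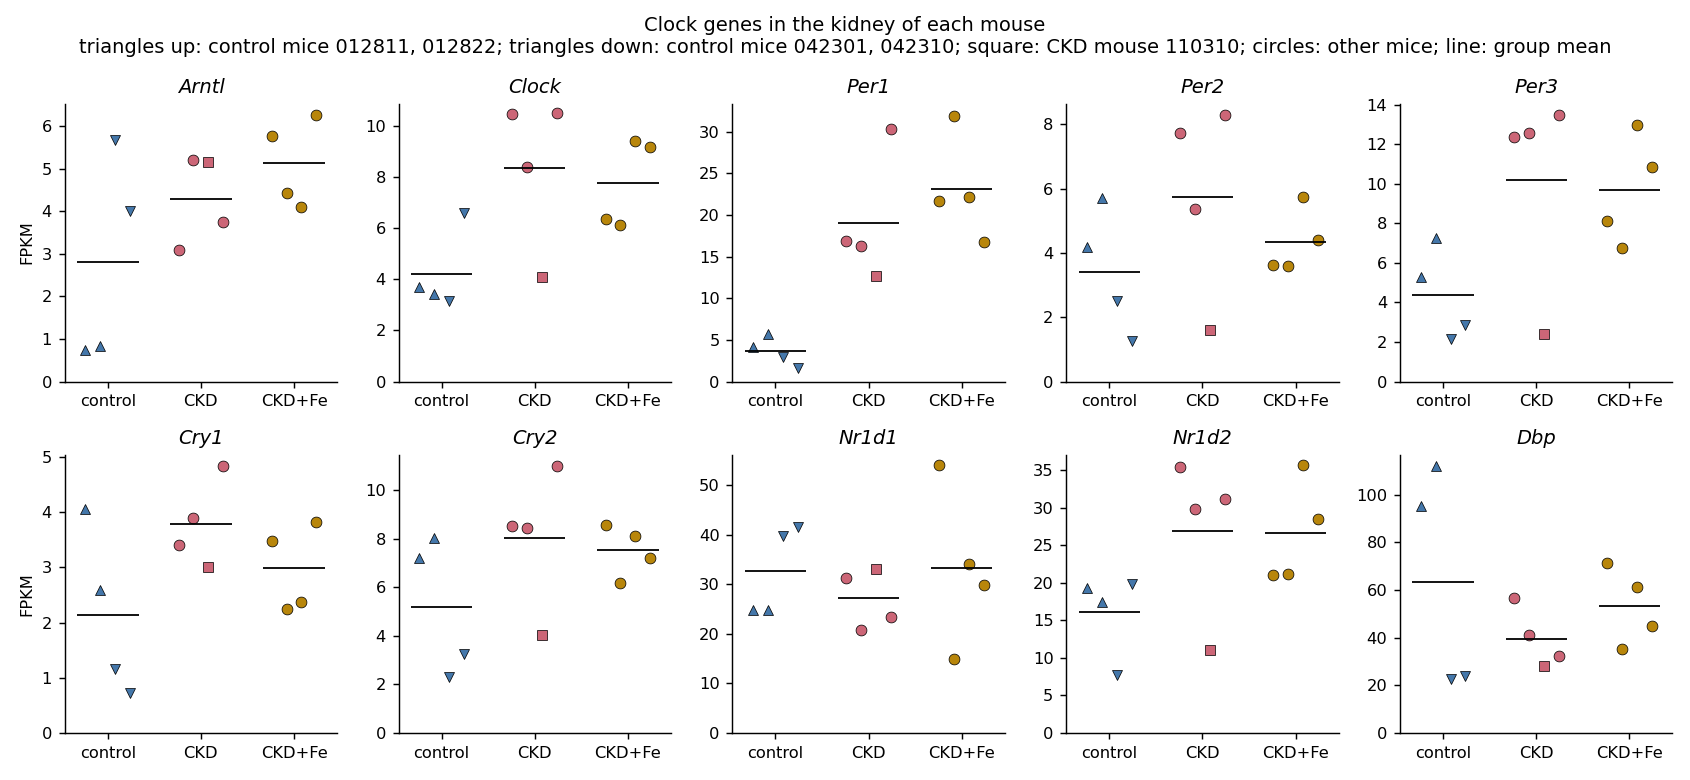
FPKM of the 10 clock genes in each mouse, with 1 panel a gene, the 3 groups along the horizontal axis and a line at each group's mean (n = 4). Triangles mark both control pairs and the square CKD mouse 110310. Per1 is the panel in which both adenine groups, from 12.6 to 31.8 FPKM, lie above all control mice, at 1.58 to 5.75 FPKM.

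Per2 and Per3, the relatives of Per1, did not share its gap from the control group. Per2 was 4.19, 5.71, 2.498 and 1.25 FPKM in control, 7.72, 5.37, 1.60 and 8.29 FPKM in CKD and 3.63, 3.60, 5.75 and 4.41 FPKM in the CKD+Fe group. Its log2 differences from control were 0.57 (SE 0.39; limma, adjusted p = 0.202) and 0.38 (SE 0.39; limma, adjusted p = 0.405). Per3 was 5.30, 7.23, 2.16 and 2.85 FPKM in control, 12.4, 12.6, 2.40 and 13.5 FPKM in CKD and 8.12, 6.77, 12.99 and 10.8 FPKM in the CKD+Fe group. The 3 CKD mice other than 110310 had more Per3 than any control mouse. Per3 differed by 0.95 (SE 0.43; limma, adjusted p = 0.0621) in CKD, which did not pass, and rose by 1.05 (SE 0.43; limma, adjusted p = 0.0437) in CKD+Fe. Without control mice 042301 and 042310 the CKD+Fe difference was 0.53 and did not pass (limma, adjusted p = 0.373).

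The cryptochromes are the other repressors of the loop. Cry1 was 4.07, 2.59, 1.15 and 0.715 FPKM in control, 3.41, 3.90, 3.01 and 4.83 FPKM in CKD and 3.48, 2.25, 2.37 and 3.82 FPKM in the CKD+Fe group. It rose by 0.73 (SE 0.29; limma, adjusted p = 0.0362) in CKD, and the CKD+Fe difference of 0.45 (SE 0.29) did not pass (limma, adjusted p = 0.175). Both adenine groups overlapped the first control pair. In CKD the Cry1 difference was 1.30 without the first control pair (limma, adjusted p = 0.000954) and 0.15 without the second, which did not pass (limma, adjusted p = 0.584). Cry2 was 7.20, 8.05, 2.28 and 3.26 FPKM in control, 8.53, 8.46, 4.04 and 11.01 FPKM in CKD and 8.58, 6.19, 8.13 and 7.22 FPKM in the CKD+Fe group. Its differences of 0.60 and 0.58 (SE 0.32 each) did not pass (limma, adjusted p = 0.112 and 0.126), and with control mice 042301 and 042310 left out they were −0.0036 and −0.02.

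The nuclear receptors Nr1d1 and Nr1d2 did not pass in either comparison with control. Nr1d1 was 24.7, 24.8, 39.7 and 41.6 FPKM in control, 31.3, 20.8, 33.01 and 23.4 FPKM in CKD and 54.1, 14.8, 34.0 and 29.9 FPKM in the CKD+Fe group. The widest group was CKD+Fe, whose mice 062910 and 042702 were the lowest and the highest of all 12. Thra, which overlaps Nr1d1, was also highest in mouse 042702, at 46.8 FPKM against 20.9 to 38.7 FPKM in the other mice. The Nr1d1 differences were −0.24 and −0.07 (SE 0.31 each; limma, adjusted p = 0.502 and 0.850). Median-of-ratios rescaling put the first at −0.80, which passed (limma, adjusted p = 0.0347). Nr1d2 was 19.3, 17.5, 7.77 and 19.8 FPKM in control, 35.5, 29.8, 11.02 and 31.1 FPKM in CKD and 21.01, 21.2, 35.6 and 28.6 FPKM in the CKD+Fe group. All 4 CKD+Fe mice were above all control mice for Nr1d2, with an exact permutation p of 0.0286, while the difference of 0.74 (SE 0.35) did not pass over all genes (limma, adjusted p = 0.0758).

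Dbp, the output factor, was the member with the highest mean FPKM in every group and had the widest scatter. It was 95.1, 112.1, 22.6 and 23.95 FPKM in control, 56.5, 41.1, 28.0 and 32.1 FPKM in CKD and 71.1, 35.0, 61.3 and 45.0 FPKM in the CKD+Fe group. All 8 adenine-fed mice lay in the gap between the control pairs. The differences from control were −0.37 and 0.05 (SE 0.46 each), and neither passed (limma, adjusted p = 0.497 and 0.926). The answer for Dbp turned on which control mice were used. In CKD+Fe it rose by 1.11 with the first control pair left out (limma, adjusted p = 0.0119) and fell by 0.997 with the second left out (limma, adjusted p = 0.0142). In CKD it was 0.69 in the first case, which did not pass, and fell by 1.42 in the second (limma, adjusted p = 0.00192). Sphk2, which overlaps Dbp, was 13.2 to 18.9 FPKM in control mice and did not follow the pairs.

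Counted over the members, 3 rose and 0 fell in CKD against control (Per1, Clock and Cry1). This is to be read against a table in which 54.6% of all genes tested were called higher and 13.3% lower. The median over the 10 members was 0.68 on the log2 scale, beside 0.50 over all genes. In CKD+Fe against control 4 rose (Per1, Clock, Arntl and Per3) and 0 fell, with 54.4% of all genes called higher and 11% lower, and the members' median was 0.66 beside 0.50. Members whose groups did not overlap numbered 1 in the first comparison and 2 in the second, against 55.1% and 60.2% of all genes tested. At an unadjusted p under 0.05, 4 members passed in each comparison. Of all 13148 genes, 7468 higher and 1846 lower passed that level in CKD, and 7497 and 1550 in CKD+Fe. The 2 comparisons share the control mice and so are not independent. All 10 members varied more within groups than the median gene, whose within-group SD was 0.257 on the log2 scale, and ranged from 0.43 for Clock to 0.79 for Dbp.

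**Figure D4:**
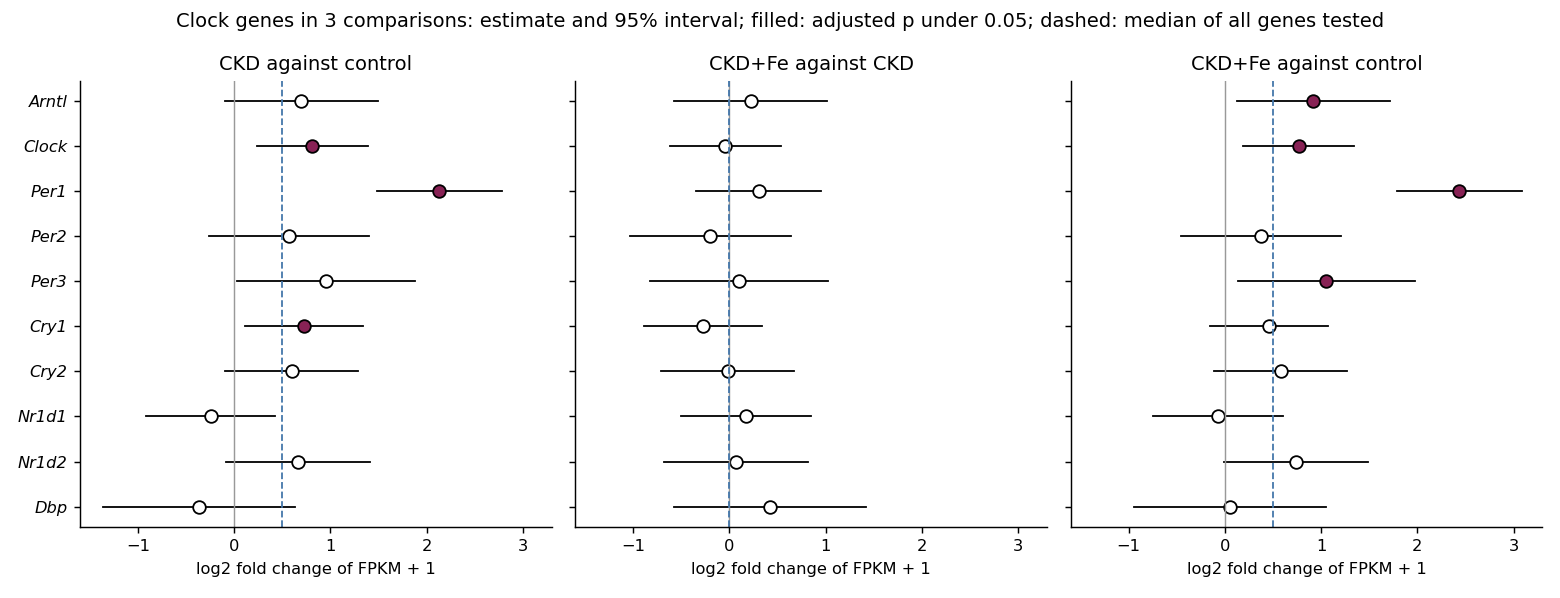
Log2 fold change of FPKM + 1 for the 10 clock genes in the 3 comparisons, with 95% intervals from limma over all 12 mice. Filled points passed an adjusted p of 0.05, and the dashed line is the median of all genes tested, 0.50 in both comparisons with control. Per1 at 2.13 and 2.44 has an interval clear of that line, and every interval in CKD+Fe against CKD spans 0.

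The counts moved with the control mice and with the scaling of the table. With mice 012811 and 012822 left out, 5 members rose in CKD (Per1, Per2, Per3, Cry1 and Cry2), beside 5702 of 13148 genes called higher. With 042301 and 042310 left out, 3 rose (Arntl, Clock and Per1) and 1 fell (Dbp), beside 6533 higher and 1590 lower of 13147 genes. Per1 was the member in both sets. Under median-of-ratios rescaling Per1 was the 1 member that rose and Nr1d1 the 1 that fell, and under quantile normalization Per1 was the 1 member called. Of 13148 genes 3781 were called higher and 3856 lower under the first, and 3060 and 3363 under the second. The calls of Clock and Cry1 in CKD, and of Clock, Arntl and Per3 in CKD+Fe, were thus lost under both. These rescalings set the median of all genes at 0.01 and −0.03 for CKD, where the deposited FPKM set it at 0.50. CKD mouse 110310 was the lowest of its group for Clock, Per1, Per2, Per3, Cry1, Cry2, Nr1d2 and Dbp. With that mouse left out 7 members rose in CKD, beside 7348 of 13148 genes called higher.

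**Figure D5:**
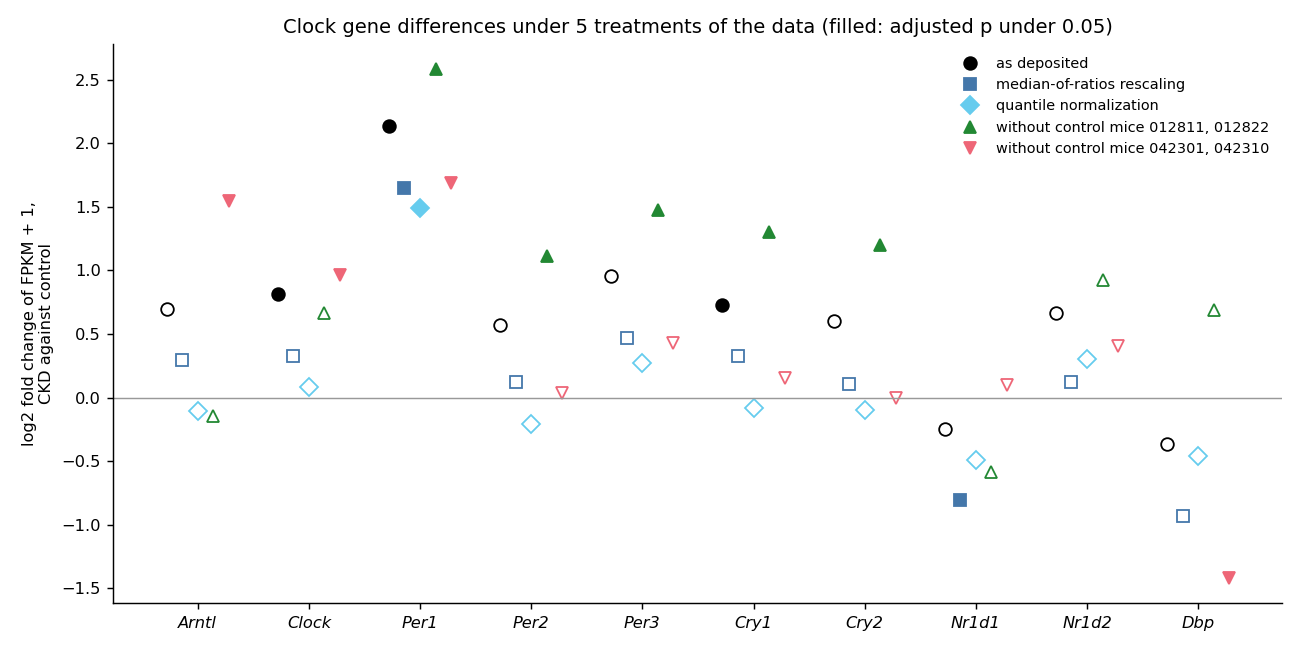
Difference in log2(FPKM + 1) between CKD and control mice for each clock gene under 5 treatments of the same table: as deposited, with 2 rescalings, and with either pair of control mice left out. Filled points passed an adjusted p of 0.05. Per1 is filled in all 5, from 1.49 to 2.58, while Arntl runs from −0.15 to 1.55 and Dbp from −1.42 to 0.69.

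The comparison of CKD+Fe with CKD mice asks whether iron dextran altered clock genes in the diseased kidney. Of the 10 members 0 were called in either direction (limma, adjusted p from 0.971 to 0.999), and 0 passed at an unadjusted p under 0.05. Over all genes 0.00761% were called higher and 0% lower, which is 1 gene and 0 genes, and before adjustment 431 higher and 359 lower genes had p under 0.05. The member differences ran from −0.27 for Cry1 to 0.42 for Dbp, with a median of 0.09 beside 0.00 over all genes. The 95% intervals were wide, from −0.35 to 0.95 for Per1, −0.57 to 1.01 for Arntl and −0.58 to 1.42 for Dbp. A rise of 1 log2 unit lay within the intervals of Arntl, Per3 and Dbp, and a fall of that size within the interval of Per2. These CKD mice are also those compared with control above.

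The wider clock list held 32 genes, of which 31 were tested, the receptor gene Rorb being too low. In CKD against control 17 rose and 3 fell (Hlf, Por and Alas1), with a median of 0.46 beside 0.50 over all genes, and in CKD+Fe against control 17 rose and 2 fell (Por and Alas1), with a median of 0.48. Hlf did not pass with control mice 012811 and 012822 left out (−0.57), nor did Alas1 (−0.37 in CKD and −0.30 in CKD+Fe). In CKD+Fe against CKD 0 of 31 were called, with adjusted p (limma) from 0.882 to 0.999. Under median-of-ratios rescaling 7 rose and 6 fell in CKD, beside 3781 higher and 3856 lower of all 13148 genes. Of the 14 kinases, ubiquitin ligases and other modifiers of clock proteins 10 rose and 0 fell in both comparisons with control, beside 54.6% and 54.4% of all genes called higher. Under median-of-ratios rescaling 4 of these rose and 2 fell in CKD and 3 rose and 3 fell in CKD+Fe, and after quantile normalization 3 rose and 2 fell and 4 rose and 2 fell. Of the 8 tested ROR, D-box and E-box regulators 3 rose and 1 fell in CKD, and of the 7 output genes 3 rose and 2 fell. Over all genes 54.6% were called higher and 13.3% lower. Under median-of-ratios rescaling 2 regulators rose and 2 fell, and 0 output genes rose and 2 fell. After quantile normalization 1 regulator rose and 1 fell, and 1 output gene rose and 2 fell. Quantile normalization called 3060 higher and 3363 lower of all 13148 genes.

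Csnk1e, the kinase that marks PER proteins for breakdown, was 4.76 to 10.98 FPKM in control, 21.5 to 35.9 FPKM in CKD and 20.8 to 32.4 FPKM in the CKD+Fe group. The groups did not overlap, and it rose by 1.91 and 1.79 (limma, adjusted p = 1.12e-05 and 2.70e-05). Arntl2, the close relative of Arntl, was 0.189 to 0.404 FPKM in control mice and 1.68 to 4.70 and 1.95 to 3.09 FPKM in CKD and CKD+Fe mice, and rose by 1.60 and 1.38. It was below 1 FPKM in all control mice and was tested only because of the adenine groups, in which it was high. The control pairs differed by 0.07 on the log2 scale for Arntl2. Bhlhe40 and Bhlhe41 encode DEC1 and DEC2, repressors that compete for the E-box, and rose by 1.41 and 1.16 in CKD and by 1.07 and 1.20 in CKD+Fe. Bhlhe40 was 22.1 to 43.1 FPKM in control and 76.9 to 114.3 FPKM in CKD mice, and Bhlhe41 0.315 to 1.01 and 1.66 to 3.58 FPKM. With 1 control mouse above 1 FPKM, Bhlhe41 too was tested because of the adenine groups.

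Csnk1e passed under both rescalings in both comparisons, as did Arntl2, with the limit just given. Bhlhe41 did not pass after quantile normalization (0.35 and 0.39), nor Bhlhe40 in CKD+Fe after median-of-ratios rescaling (0.52). Wee1, a cell cycle kinase with E-boxes in its promoter, rose by 1.08 in CKD, from 2.33 to 8.89 FPKM in control to 10.2 to 16.2 FPKM in CKD mice, but did not pass under either rescaling. Timeless rose by 1.05 and 0.95, from 1.24 to 2.32 FPKM in control to 3.45 to 4.91 and 3.15 to 5.09 FPKM, and did not pass after quantile normalization (0.20 and 0.12). Por, the reductase that serves cytochrome P450 enzymes, was the 1 gene of the list that fell with no overlap, by 1.14 in CKD and 1.06 in CKD+Fe, from 103.1 to 158.0 FPKM in control to 36.6 to 67.6 and 50.9 to 69.5 FPKM. Por is rich in the proximal tubule, whose markers were lower in the same mice, and the part of that in the level of Por was not tested.

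The genes whose pattern was most like that of Arntl were sought over all 12 mice after each group's mean was taken off, among 13131 genes with a value in every mouse. Npas2 came first with Pearson r = 0.98, followed by Pnrc1 (0.973), Epha7 (0.935), Txnip (0.908) and Terf1 (0.889). The most opposite were Ciart (−0.954), Nat8f3 (−0.934), Dnaja2 (−0.919), Wee1 (−0.908) and Coq10b (−0.901). The 12 points include both control pairs, which carry much of the scatter. With the 2 mice farthest from the median Arntl value left out, r was 0.972 for Npas2 and −0.949 for Ciart, and over the 8 adenine-fed mice alone it was 0.905 and −0.813. Over those 8 mice r was 0.907 for Pnrc1 but 0.747 for Txnip, 0.675 for Epha7 and 0.671 for Terf1. It was −0.895 for Dnaja2 but −0.797 for Coq10b, −0.681 for Nat8f3 and −0.6 for Wee1. Arntl and Dbp had r = −0.86 over the 12 mice and −0.264 over the 8.

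For Dbp the most alike were Ciart (r = 0.886), Gpr146 (0.842), Cry2 (0.833), Rraga (0.811) and Heatr3 (0.809). The most opposite were Asb9 (−0.943), Ndrg1 (−0.919), Fbxo34 (−0.892), Npas2 (−0.878) and Arsg (−0.867). Over the 8 adenine-fed mice r was −0.96 for Asb9 and −0.858 for Ndrg1 but 0.358 for Ciart. Clock was near 0 with both, at −0.01 with Arntl and −0.02 with Dbp. These correlations are descriptions over 12 mice whose collection times are not given, with no test.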

How the data were processed

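Whole kidney RNA of 12 mice was sequenced after TruSeq stranded mRNA preparation, and the submitters' processing notes name bcl2fastq 2.19, STAR 2.5.2, Cufflinks 2.1.1 and GRCm38. The authors deposited FPKM per protein-coding gene, with no counts, so no count test was run and depth is known only as a ratio between libraries. Values whose Cufflinks status was a failure (30 values in 17 genes, none in a clock gene) were set to missing.

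FPKM were used as log2(FPKM + 1), so fold changes of low genes are understated. Genes with at least 1 FPKM in 4 mice were fitted with limma 3.58.1 (R 4.3.3; all 12 mice in 1 fit, variance trend), with Benjamini-Hochberg adjustment over the 13148 genes and a threshold of 0.05. Single genes were also compared by an exact two-sided permutation test over 8 mice (70 arrangements). The fit was tested on simulated data. Other pseudocounts, filters, scalings, weights and sets of mice were tried, and leaving out either control pair was chosen after the values were seen.

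The members and lists were chosen with earlier results of these data known. All 10 members are given in every mouse. Of the wider list, genes called with no overlap of groups are named, at most 5 rises and 5 falls a comparison. In the paragraph on the control pairs, genes were named after their values were seen. Marker and response lists give 99 of 100 genes matched by symbol. Where a symbol had 2 rows, the row with the higher mean was used. Of the table's identifiers 21810 are in GENCODE M21, which gave strand and overlaps.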

Additional observations from a re-analysis of the deposited data

Results flagged for a closer look

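Each of the 30 sets of 4 values (10 clock genes in 3 groups) was searched for a mouse far from the other 3, by the gap to its neighbour over the range of the set. The limit was Dixon's 95% critical value, which chance alone passes in about 1 set in 20, and 2 passed. Clock was 6.61 FPKM in control mouse 042310, with the next mouse at 3.70 FPKM and a gap of 0.845 of the range. Per3 was 2.40 FPKM in CKD mouse 110310, with the next mouse at 12.4 FPKM and a gap of 0.898 of the range. With mouse 110310 left out, Per3 rose by 1.46 in CKD against control (limma, adjusted p = 0.000797), where it was 0.95 with all mice. The 2 pairs of control mice, whose Dbp to Arntl ratios were 130 and 133 against 3.99 and 5.98, are not a single mouse apart from 3 and so do not pass this search.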

How the results depend on the processing

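No paired analysis was possible because the groups share no mouse numbers. Per1 kept its direction and its call in both comparisons with control under all 40 alternatives, from 1.49 to 2.88. In CKD against control, where 3 clock genes rose and 0 fell, the number that rose was 1 under median-of-ratios rescaling, 1 under quantile normalization, 5 without control mice 012811 and 012822, 6 with array weights, 7 without the 3 mice 042301, 110310 and 042702, and 8 at an adjusted p under 0.5. The number that fell was 1 under median-of-ratios rescaling, 1 without control mice 042301 and 042310 and 1 at an adjusted p under 0.5. Of 13148 genes, those called higher were 5702 without 012811 and 012822, 7994 with array weights, 7811 without the 3 mice and 9083 at 0.5. Those called lower were 1590 of 13147 without 042301 and 042310 and 2681 of 13148 at 0.5, and the rescalings follow below. In CKD+Fe against control, where 4 rose, the number that rose was 1 under each rescaling, 2 with no filter on low values and 8 at an adjusted p under 0.5, and 1 fell without control mice 042301 and 042310. Without control mice 012811 and 012822, Arntl (0.07) and Clock (0.62) lost their calls there. Cry1 (1.03) and Dbp (1.11) then gained one, beside 5531 of 13148 genes called higher. Over all genes 8134 of 18036 were called higher with no filter and 9224 of 13148 at 0.5. Without 042301 and 042310, 1323 of 13147 were called lower. Leaving out 1 mouse gave 1 to 7 that rose in CKD (1 without 021320 or 120102, 5 without control mouse 012822, 7 without 110310) and 1 to 3 in CKD+Fe (1 without 122320, 2 without control mouse 042301, 042702 or 111710). Of 13148 genes those called higher in CKD were 6776 without 021320, 6789 without 120102, 6687 without 012822 and 7348 without 110310. In CKD+Fe they were 6668 without 122320, 7190 without 042301, 6730 without 042702 and 6659 without 111710. No clock gene was called in CKD+Fe against CKD under any alternative.

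Of all calls in CKD against control 80.4% were higher, against 49.5% under median-of-ratios rescaling and 47.6% under quantile normalization, and in CKD+Fe against control 83.2%, 50.1% and 46.8%. Calls numbered 7181 higher and 1748 lower, 3781 and 3856, and 3060 and 3363 in the first, and 7159 and 1442, 3636 and 3618, and 2605 and 2967 in the second. At an adjusted p under 0.5, CKD+Fe against CKD had 92 higher and 72 lower genes where it had 1 and 0. In the wider clock list 17 rose and 3 fell in CKD, against 7 and 6 under median-of-ratios rescaling and 6 and 5 under quantile normalization.

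Values that changed sign were as follows, as log2 differences. In CKD against control they were −0.10 for Arntl, −0.21 for Per2, −0.0838 for Cry1 and −0.10 for Cry2 under quantile normalization. They were −0.15 for Arntl and 0.69 for Dbp without 012811 and 012822, and −0.0036 for Cry2 and 0.10 for Nr1d1 without 042301 and 042310. In CKD+Fe against control they were −0.0613 for Per2 and −0.50 for Dbp under median-of-ratios rescaling, and −0.41 for Per2, −0.34 for Cry1, −0.13 for Cry2 and −0.0350 for Dbp under quantile normalization. They were 0.11 for Nr1d1 and −0.60 for Dbp with array weights and −0.46 for Dbp without the 3 mice. Without 042301 and 042310 they were −0.16 for Per2, −0.12 for Cry1, −0.0231 for Cry2, 0.27 for Nr1d1 and −0.997 for Dbp. In CKD+Fe against CKD they were −0.14 for Per3 and −0.0610 for Nr1d2 with array weights, and −0.34 for Per3, −0.0039 for Nr1d1 and −0.20 for Nr1d2 without the 3 mice. Leaving out 1 mouse ran from −0.73 to 0.0242 for Dbp in CKD and, in CKD+Fe against control, from −0.35 to 0.25 for Nr1d1 and −0.31 to 0.44 for Dbp. In CKD+Fe against CKD it ran from −0.32 to 0.0784 for Clock, −0.60 to 0.0088 for Per2, −0.41 to 0.29 for Per3, −0.28 to 0.14 for Cry2, −0.10 to 0.50 for Nr1d1 and −0.29 to 0.24 for Nr1d2. A filter at a mean of 5 FPKM left Arntl, Per2 and Cry1 untested. The causes were not tested. With 4 mice a group, the intervals are wide, and values without counts give no counting error.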
